A study of Mus musculus with 6 samples.

Results

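The nuclear lamina and the LINC complex (linker of nucleoskeleton and cytoskeleton) were examined in C2C12 mouse myoblasts through 10 genes, taken by their symbols from the 22375 rows of the deposited FPKM table. They were the lamin genes Lmna, Lmnb1 and Lmnb2, the inner nuclear membrane genes Emd and Lbr, the SUN genes Sun1 and Sun2, and the nesprin genes Syne1, Syne2 and Syne3. All 10 were found, each in 1 row, and all 10 passed the filter of a mean of 0.5 FPKM that left 11593 genes for testing. C2C12 is an established line of muscle precursor cells, grown here to near confluence on elastic plates coated with poly-lysine. The CON group (3 libraries) was not stretched, and the 4H group (3 libraries) underwent cyclic loading to 15% elongation for 4 h. The labels give the same cell line for all 6 libraries and set the groups apart by this treatment alone. The 4H libraries carry the titles 4H1, 4H3 and 4H4 and are called 4H replicates 1, 2 and 3 here, after the replicate numbers in their descriptions. Whether the replicates were separate cultures is not stated, so the p values measure the spread between these libraries, which may be technical.

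The lamina is a meshwork of lamin filaments under the inner nuclear membrane. A-type lamins come from Lmna, and B-type lamins from Lmnb1 and Lmnb2. SUN proteins span the inner membrane and bind the KASH domain of nesprins in the outer membrane, and nesprins bind actin, plectin and microtubule motors, so that pulling on the cytoskeleton reaches the lamina. In skeletal muscle the complex anchors nuclei in the fiber, and mutations of LMNA and EMD cause Emery-Dreifuss muscular dystrophy.

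FPKM sums per library were 395790 to 397260 in the CON group and 385146 to 387516 in the 4H group, so that every 4H total lay below every CON total. FPKM, fragment numbers scaled by transcript length and library size, does not keep the numbers themselves, so the depth is unknown. Across genes, which are not independent replicates, log2 values of 2 libraries correlated with a Pearson r of 0.992 to 0.993 for libraries of the same group and 0.967 to 0.97 for those of different groups. The myoblast markers Myod1, Myf5, Des, Cdh15 and Vcam1 were present. Pax7, of the same list, was at 0.452 and 0.429 FPKM in the CON and 4H groups, below the filter for testing. Myod1 was at 5.13 ± 0.57 and 18.2 ± 0.74 FPKM in the CON and 4H groups, and Des at 71.6 ± 1.07 and 88.8 ± 2.40 FPKM (SD, n = 3 each). Cdh15 and Vcam1 also rose, from 7.46 ± 0.32 to 12.3 ± 1.19 FPKM and from 20.2 ± 1.42 to 23.7 ± 1.24 FPKM, whereas Myf5 fell from 15.8 ± 0.85 to 9.82 ± 1.13 FPKM. The summed level of the 10 markers of differentiated muscle was 0.729 to 1.16 FPKM in the CON libraries and 1.5 to 2.3 FPKM in the 4H libraries, but its members went apart. Mymk was at 0.525 ± 0.16 and 1.01 ± 0.12 FPKM, Tnnt3 at 0.0779 ± 0.07 and 0.401 ± 0.18 FPKM and Tnni1 at 0.0149 ± 0.03 and 0.363 ± 0.11 FPKM, each higher in every 4H library, whereas Myog, a master regulator of differentiation, was at 0.217 ± 0.07 and 0.0265 ± 0.05 FPKM, lower in every 4H library and below the filter for testing. Mymx, Myh8 and Actn2 were listed at 0 in every library. Of the markers of other cell types, Ptprc, Adgre1, Epcam and Rbfox3 were listed at 0 in every library, while Cd68, Csf1r and Tubb3 rose. The summed level of the 5 macrophage and leukocyte markers was 6.82 to 8.55 FPKM in the CON libraries and 16.6 to 18.6 FPKM in the 4H libraries, and that of the 4 neuronal markers 15.1 to 17.7 FPKM and 33.6 to 38.6 FPKM. The leukocyte sum was nearly all Cd68 (7.57 and 16.4 FPKM), and the neuronal sum nearly all Tubb3 (16.2 and 35.8 FPKM), with Syp at 0.213 and 0.192 FPKM. The sum of the 4 endothelial markers was 0.101 to 0.122 and 0.254 to 0.387 FPKM and that of the 5 epithelial markers 0.0401 to 0.148 and 0.415 to 0.826 FPKM, both low but higher in every 4H library. The part of these markers in the results on the nuclear envelope was not tested. The RNA is from bulk cultures, in which fewer cells that express a gene and less RNA of it per cell cannot be told apart.

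Under stretch 6 of the 10 genes changed, in both directions and by modest amounts. Lmna, Syne1 and Syne3 rose, while Lmnb2, Lbr and Sun2 fell, at an adjusted p of at most 0.05. The differences of Lmnb1, Emd, Sun1 and Syne2 did not pass the test. The test was that of limma, run on log2(FPKM + 0.5), with p values adjusted over all 11593 genes by the Benjamini-Hochberg method. This scale understates the change of low genes. The 6 of 10 genes that passed stand beside 46.7% of all genes tested, and the 3 that rose and 3 that fell beside 22.6% and 24.1%. None of the 10 reached an absolute log2 fold change of 1 together with that p, the thresholds of the study, which 3.88% of genes tested reached. The groups did not overlap in 7 of the 10, against 56.7% of genes tested. The median log2 fold change of the 10 was 0.02 and that of all genes tested -0.01, while the medians of the absolute log2 fold change were 0.17 and 0.19.

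**Figure D1:**
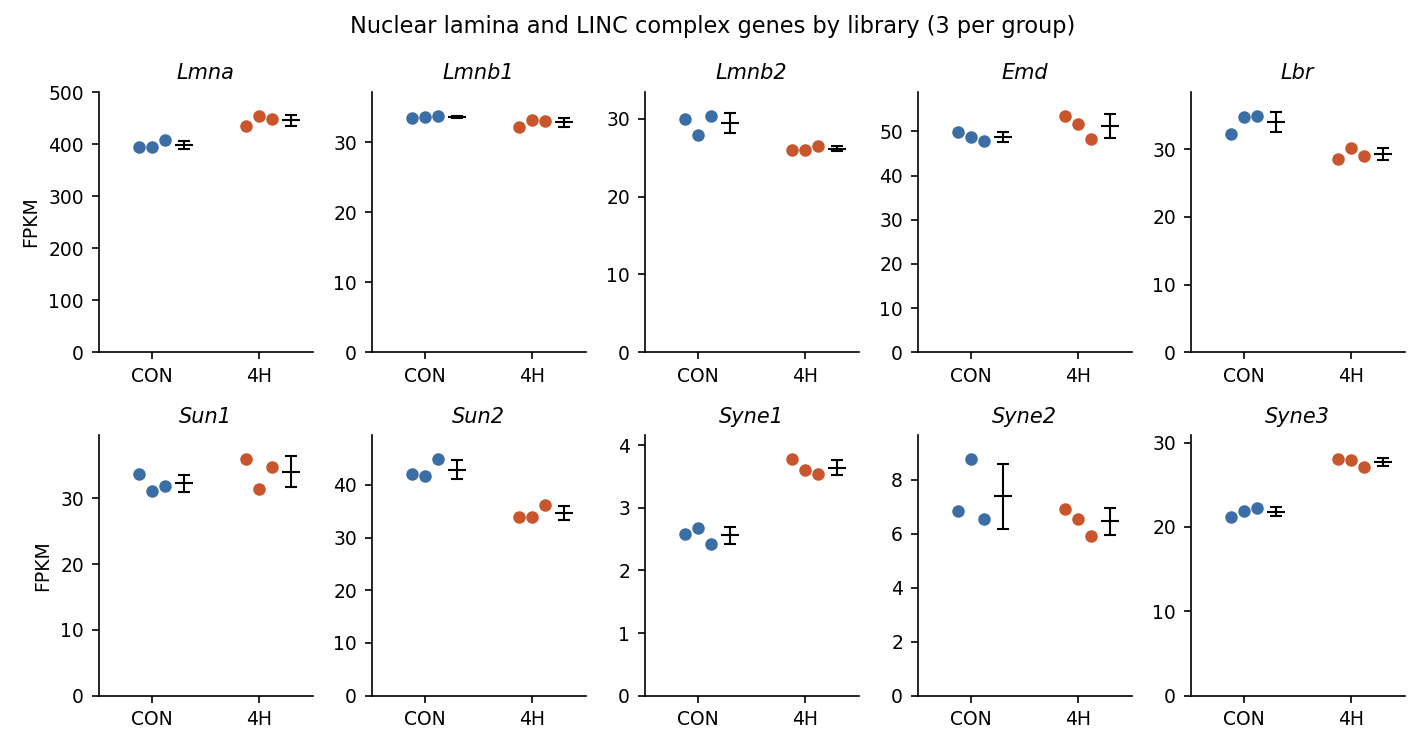
FPKM of each of the 10 genes (vertical axis from 0, one panel per gene) in the 3 CON and 3 4H libraries, with one point per library and a bar for the mean ± SD of each group. All 4H points lie above all CON points for Syne1, Syne3 and Lmna and below them for Sun2, Lbr, Lmnb2 and Lmnb1, and the groups overlap for Emd, Sun1 and Syne2.

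Among the lamins, the A-type gene rose and a B-type gene fell. Lmna (ENSMUSG00000028063, on the minus strand of chromosome 3 from 88480147 to 88509956 in GRCm38) encodes lamin A and lamin C as splice forms of 1 gene, which a value per gene does not separate. It was at 394, 394 and 408 FPKM in the CON libraries against 434, 455 and 449 FPKM in the 4H libraries. Every 4H library was above every CON library, and the log2 fold change was 0.16 ± 0.03 (SE) with limma's adjusted p at 0.00201, a mean 1.12 times that of CON. Lmna was by far the highest of the 10 genes, above 99.1% of the genes tested in the CON group, and made up 61.0% to 61.5% of the summed FPKM of the 10 genes in the CON libraries and 63.6% to 65.0% in the 4H libraries.

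Lmnb2 (ENSMUSG00000062075, minus strand of chromosome 10 from 80901203 to 80918245) encodes lamin B2. It was at 30.1, 27.9 and 30.4 FPKM in the CON libraries against 26.0, 26.0 and 26.5 FPKM in the 4H libraries. The groups did not overlap, and the log2 fold change was -0.17 ± 0.04 (SE) with limma's adjusted p at 0.0145. This was the least firm of the 6 calls, since without CON replicate 3 the adjusted p was 0.0548, the highest of a range from 0.0069 over the alternatives. Lmnb1 (ENSMUSG00000024590), the gene of lamin B1, was at 33.5, 33.6 and 33.8 FPKM in the CON libraries against 32.2, 33.3 and 33.1 FPKM in the 4H libraries. All 4H values lay below all CON values, but with a mean 0.977 times that of CON, and the test was not passed (log2 fold change -0.03, 95% interval -0.11 to 0.05, adjusted p = 0.460 from limma). With libraries rescaled to TPM or quantile-normalized, the log2 fold change of Lmnb1 was above 0, at 0.0025 and 0.0011. The interval allows a level in the 4H group from 0.925 to 1.03 times that of CON.

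The balance of lamin transcripts within a library does not depend on a factor common to all its genes. The ratio of Lmna to the sum of Lmnb1 and Lmnb2 was 6.20, 6.41 and 6.34 in the CON libraries and 7.46, 7.67 and 7.52 in the 4H libraries. It was higher in every 4H library, by 0.26 on the log2 scale or 1.20-fold (two-sided exact permutation test, p = 0.1, the smallest that 3 libraries against 3 can give). With each library left out in turn the log2 difference ranged from 0.24 to 0.27.

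**Figure D2:**
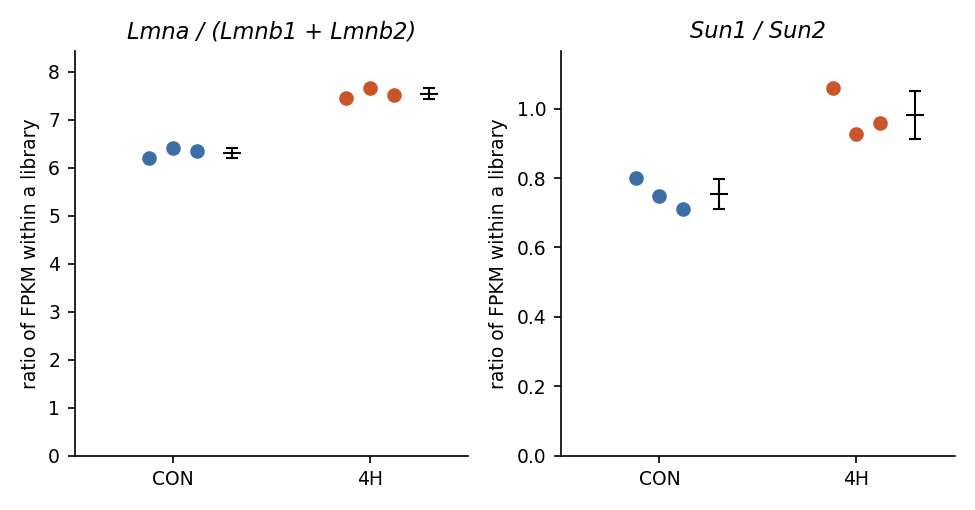
Ratio of FPKM within each library (vertical axis from 0) of Lmna to Lmnb1 plus Lmnb2 on the left and of Sun1 to Sun2 on the right, with one point per library and a bar for the mean ± SD of each group. Both ratios are higher in all 3 4H libraries than in all 3 CON libraries.

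Of the 2 genes of inner membrane proteins that hold the lamina, Lbr fell and Emd did not pass the test. Lbr (ENSMUSG00000004880, minus strand of chromosome 1 from 181815335 to 181843046) encodes the lamin B receptor, which tethers B-type lamins and heterochromatin and is also a sterol reductase. It was at 32.3, 34.7 and 35.0 FPKM in the CON libraries against 28.6, 30.2 and 29.1 FPKM in the 4H libraries. No 4H library reached the CON range, and the log2 fold change was -0.21 ± 0.04 (SE) with limma's adjusted p at 0.00554. Exons of Lbr overlap Gm26004 on the same strand and Dnah14, at no more than 0.0533 FPKM, on the other. Emd (ENSMUSG00000001964, plus strand of chromosome X from 74254687 to 74261548) encodes emerin, which binds lamins, actin and the DNA-bridging protein BAF. It was at 49.9, 48.8 and 47.8 FPKM in the CON libraries against 53.6, 51.7 and 48.2 FPKM in the 4H libraries. The groups overlapped through 4H replicate 3 (log2 fold change 0.07, 95% interval -0.04 to 0.17, adjusted p = 0.262 from limma), and the fold change was 0.03 without 4H replicate 1 and 0.11 without 4H replicate 3. Of the 75-base stretches of Emd transcripts, 14.0% recur in transcripts of other annotated genes, and its exons overlap Gm14686 on the same strand, so its level is uncertain. This share was at most 0.0712% in the other 9 genes.

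Of the SUN genes, Sun2 fell and Sun1 did not pass the test. Sun2 (ENSMUSG00000042524, minus strand of chromosome 15 from 79724070 to 79742536) had the largest fall of the 10 genes. It was at 42.1, 41.6 and 44.9 FPKM in the CON libraries against 33.9, 33.9 and 36.2 FPKM in the 4H libraries. All 4H libraries lay well below the CON range, with a log2 fold change of -0.30 ± 0.04 (SE) with limma's adjusted p at 0.000843 and a mean 0.809 times that of CON. Sun1 (ENSMUSG00000036817, plus strand of chromosome 5 from 139200637 to 139249840) was at 33.7, 31.1 and 32.0 FPKM in the CON libraries against 36.0, 31.4 and 34.7 FPKM in the 4H libraries. These ranges overlapped, and the log2 fold change of 0.07 did not pass (95% interval -0.06 to 0.21, adjusted p = 0.317 from limma). It was 0.03 without 4H replicate 1 and 0.13 without 4H replicate 2. The ratio of Sun1 to Sun2 within a library was 0.800, 0.749 and 0.712 in the CON group and 1.06, 0.927 and 0.959 in the 4H group. It was higher in every 4H library, by 0.38 on the log2 scale (two-sided exact permutation test, p = 0.1, the smallest possible), and by 0.33 to 0.43 with a library left out. Sun2 exceeded Sun1 in every CON library, whereas in the 4H group their ranges overlapped. Sun1 and Sun2 each share exon sequence with an annotated gene on the other strand, 4930520M14Rik and Gm16575. The libraries are strand-specific, but whether the counting used the strand is not stated.

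Of the nesprins, Syne1 and Syne3 rose and Syne2 did not pass the test. Syne3 (ENSMUSG00000054150, minus strand of chromosome 12 from 104929933 to 105009809) encodes nesprin-3, which binds plectin and through it intermediate filaments. It was at 21.2, 21.9 and 22.3 FPKM in the CON libraries against 28.0, 27.9 and 27.1 FPKM in the 4H libraries. The groups were far apart for their spread, with a log2 fold change of 0.34 ± 0.04 (SE) with limma's adjusted p at 0.000235, the smallest adjusted p of the 10 genes. Syne1 (ENSMUSG00000096054, minus strand of chromosome 10 from 5020917 to 5551482) encodes nesprin-1, whose giant forms bind actin. It was the lowest of the 10 genes, at 2.59, 2.68 and 2.42 FPKM in the CON libraries against 3.78, 3.60 and 3.55 FPKM in the 4H libraries. All 4H libraries were above the CON range, by a log2 fold change of 0.44 ± 0.08 (SE) with limma's adjusted p at 0.00289, the largest rise of the 10 genes and a mean 1.42 times that of CON.

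Syne2 (ENSMUSG00000063450, plus strand of chromosome 12 from 75818134 to 76110926) encodes nesprin-2, a giant actin-binding relative of nesprin-1. It was at 6.82, 8.75 and 6.56 FPKM in the CON libraries against 6.90, 6.54 and 5.90 FPKM in the 4H libraries. CON replicate 2 stood above the 5 others, the groups overlapped, and the log2 fold change was -0.17 (95% interval -0.43 to 0.08, adjusted p = 0.241 from limma). Without CON replicate 2 it was -0.05. Syne2 had the widest spread of the 10 genes, with a coefficient of variation of 16.3% in the CON group, where the others had 0.533% to 5.22%. Syne3 made up 65.7% to 71.3% of the summed nesprin FPKM in the CON libraries and 72.4% to 74.2% in the 4H libraries, Syne1 7.74% to 8.44% and 9.47% to 9.76%, and Syne2 21.0% to 26.2% and 16.1% to 17.8%. Syne1 and Syne2 have annotated transcripts from 2726 to 27908 and from 440 to 21704 bases, exons of Syne2 overlap Mir5101 on the same strand, and the table does not say which of these forms lie behind the FPKM.

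**Figure D3:**
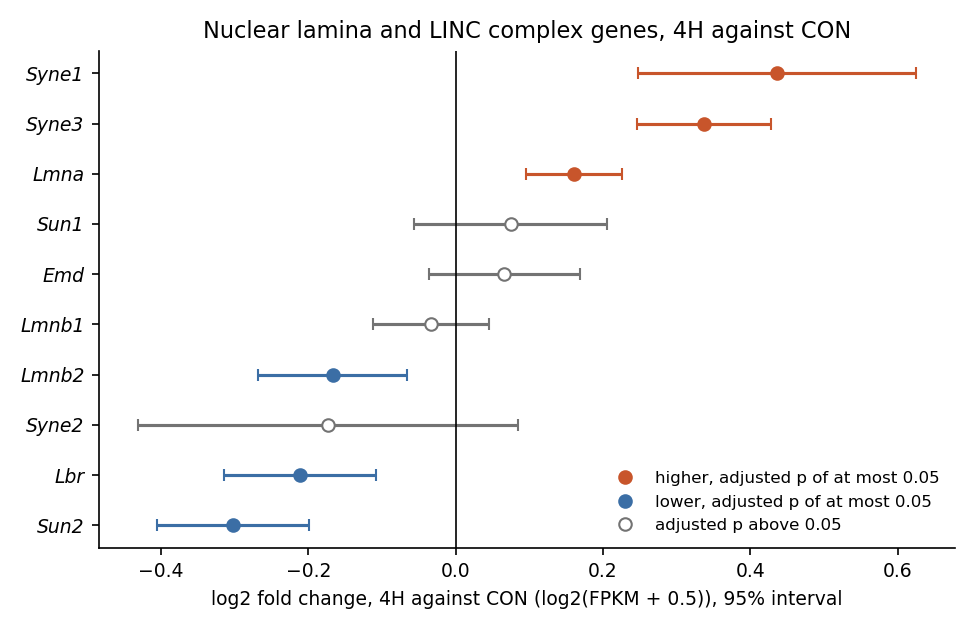
Log2 fold change of the 10 genes in the 4H group against the CON group on the log2(FPKM + 0.5) scale (horizontal axis), with 95% intervals from limma (n = 3 libraries each). Filled points passed an adjusted p of 0.05, 3 of them higher and 3 lower, and the intervals of the 4 open points include 0.

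By level, Lmna stood first and Emd second in both groups, and Syne2 and Syne1 stood last. In the CON group the order between them was Sun2, Lbr, Lmnb1, Sun1, Lmnb2 and Syne3, and the ranges over libraries overlapped between Lbr and Lmnb1 and between Lmnb1 and Sun1. In the 4H group it was Sun2, Sun1, Lmnb1, Lbr, Syne3 and Lmnb2, with overlap between Sun2 and Sun1 and between Sun1 and Lmnb1. Syne3 thus stood below Lmnb2 in every CON library and above it in every 4H library.

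Promoter sequences from RefSeq (GRCm38.p6, the build mm10 of the processing notes) were at hand for 9 of the 10 genes, with 14 start sites. The 250 bases before the start are shown for Sun2, the gene with the largest fall, and Syne3, the rise with the smallest adjusted p. Capitals mark CpG dinucleotides. The Sun2 stretch is chr15:79742537-79742786 and that of Syne3 chr12:104998678-104998927, both on the minus strand and written 5′ to 3′.
Sun2: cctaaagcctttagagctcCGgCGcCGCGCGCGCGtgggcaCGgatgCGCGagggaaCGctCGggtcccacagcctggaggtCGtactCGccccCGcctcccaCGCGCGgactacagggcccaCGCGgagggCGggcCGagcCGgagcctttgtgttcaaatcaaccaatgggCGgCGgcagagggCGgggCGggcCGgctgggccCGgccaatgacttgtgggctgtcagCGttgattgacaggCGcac
Syne3: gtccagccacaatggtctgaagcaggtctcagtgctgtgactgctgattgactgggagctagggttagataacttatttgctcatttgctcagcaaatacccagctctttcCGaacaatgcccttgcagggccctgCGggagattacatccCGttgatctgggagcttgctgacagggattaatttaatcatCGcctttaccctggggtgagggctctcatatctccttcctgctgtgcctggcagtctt

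The Sun2 stretch held 31 CpG, more than 94.8% of the 32851 mouse promoters in the table, and the Syne3 stretch held 4, where the median promoter held 6. The start used for Sun2 is the annotated start of the gene, while that of Syne3 lies 11132 bases inside the GENCODE M21 gene, and which start was in use in these cells was not measured. In the windows from 250 bases before to 50 after a start, motifs of factors known to respond to stretch were looked for on both strands. The AP-1 motif TGANTCA was in 1 window each of Lbr and Lmna, and 7.81% of all promoters hold it. The TEAD motif GGAATG was in 1 window each of Emd and Syne1, against 14.7% of all promoters. The CArG box of SRF was in none of the 14 windows, and 1.63% of all promoters hold it. No window held more than 1 of these 3 motifs, and a match is a string of letters, not a measured site.

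The other genes of the envelope were counted by lists, each to be read beside the 46.7% of all genes tested that passed, 22.6% higher and 24.1% lower. The balance of these shares depended on scaling and filter, with 2617 genes higher and 2792 lower as tested, 3140 and 2334 with TPM and 2967 and 2598 with no filter. Of 14 tested genes of inner membrane proteins and lamina partners, 1 rose and 4 fell, with a median log2 fold change of -0.04, a share of 35.7%. This median was -0.06 without CON replicate 1 and -0.02 without CON replicate 2. With TPM 3 rose and 4 fell, and with quantile scaling 2 rose and 4 fell. Banf1, the gene of BAF, which links emerin and other LEM-domain proteins to DNA, fell from 123 ± 4.30 to 84.1 ± 2.71 FPKM (mean ± SD of 3 libraries), and its log2 fold change was -0.55 with an adjusted p of 1.11e-05 from limma. Tor1aip2, the gene of the torsin activator LULL1, fell from 88.9 ± 2.71 to 70.5 ± 4.81 FPKM (log2 fold change -0.34). Tor1aip1, the gene of the lamina-binding torsin activator LAP1, was at 52.8, 57.4 and 62.4 FPKM in the CON libraries against 52.7, 28.9 and 29.3 FPKM in the 4H libraries. 4H replicate 1 of Tor1aip1 lay just under the CON range, and the adjusted p of 0.0264 (log2 fold change -0.69) rose to 0.0646 without CON replicate 2, 0.0817 without CON replicate 3, 0.0817 without 4H replicate 2 and 0.0858 without 4H replicate 3, and was 0.0631 with no filter and 0.0560 without the trend. In these 6 cases its log2 fold change was between -0.69 and -0.54, and without 4H replicate 1 it was -0.97 with an adjusted p of 3.84e-05. Tor1aip1 and Tor1aip2 share exon sequence on opposite strands, as does Banf1 with Eif1ad (22.7 to 34.1 FPKM over the libraries).

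Of the 5 enzymes that process prelamin A and other CaaX proteins, 3 rose and 1 fell, with a median of 0.14, against 22.6% higher and 24.1% lower among all genes. In 7 of the 15 alternatives 2 rose and 1 fell. Zmpste24, the protease that cleaves prelamin A, rose from 43.8 ± 0.36 to 48.4 ± 0.92 FPKM, and Icmt, the methyltransferase of farnesylated proteins, from 19.1 ± 0.43 to 21.6 ± 0.41 FPKM. Fntb, the beta subunit of farnesyltransferase, fell from 11.3 ± 0.36 to 9.52 ± 0.11 FPKM. Fntb shares exon sequence on the same strand with Churc1, at 11.8 to 18.6 FPKM over the libraries. Of the 75-base stretches of Fntb transcripts, 4.64% recur in other genes, and the part of this in its fall was not tested. Zmpste24 shares exon sequence with Gm26186 on the same strand, and Icmt with Rnf207, at no more than 0.162 FPKM, on the other.

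Among 15 cytoskeletal partners of nesprins, 6 rose and 1 fell, with a median of 0.03 (0.07 with TPM or quantile scaling and 0.05 without 4H replicate 2), and the share that passed was that of all genes, 46.7%. Fhod1, a formin that binds nesprin-2 and bundles actin, rose most of all genes in these lists, from 12.0 ± 0.54 to 20.7 ± 0.72 FPKM, a log2 fold change of 0.76 with an adjusted p of 1.14e-05 from limma. Klc1, a kinesin light chain, rose from 61.3 ± 1.70 to 76.9 ± 1.42 FPKM, and Plec, the gene of the nesprin-3 partner plectin, from 94.6 ± 1.15 to 114 ± 4.97 FPKM. Exons of Fhod1 overlap Tmem208 (27.0 to 32.0 FPKM over the libraries) and those of Klc1 Xrcc3 (6.51 to 8.17 FPKM) on the other strand. Plec shares exon sequence with Parp10 (16.4 to 29.8 FPKM) on its own.

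Of 28 tested nuclear pore genes, 7 rose and 7 fell, with a median of -0.01 that was above 0 with TPM or quantile scaling and without 4H replicate 3, and the 50% that passed stood beside 46.7% of all genes. The largest changes were falls, of Nup188 from 41.2 ± 1.12 to 27.0 ± 1.13 FPKM, of Nup62 from 51.5 ± 1.31 to 40.9 ± 0.39 FPKM and of the membrane nucleoporin gene Ndc1 from 35.8 ± 1.60 to 29.5 ± 0.83 FPKM. Without 4H replicate 2, 9 pore genes passed instead of 14. Nup58 was listed at 0 in every library, although the pore of every cell holds its protein, so that 0 may be a failed estimate. Nup62 shares exon sequence with Atf5 on the other strand, which ranged from 28.4 to 97.2 FPKM over the libraries, and Nup188 with Gm28038 on its own. Of 8 symbols listed for the remaining SUN and KASH genes, some of them older names of the same gene, 6 were found. Spag4 alone could be tested (0.814 and 0.858 FPKM, adjusted p above 0.05), with Sun3, Sun5 and Kash5 listed at 0.

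Genes of proliferation were counted as well. Of 12, 1 rose and 7 fell, with a median of -0.10, and 66.7% passed against 46.7% of all genes. Mcm7, a subunit of the replicative helicase, fell from 75.2 ± 1.5 to 59.1 ± 1.98 FPKM, and Pcna from 172 ± 4.92 to 149 ± 3.43 FPKM, while the mitotic kinase gene Cdk1 rose from 39.2 ± 1.48 to 51.0 ± 0.29 FPKM and Mki67 was at 73.3 and 71.3 FPKM without passing. The number that passed fell from 8 to 5 without CON replicate 3 and to 4 with libraries rescaled to TPM. The summed level of the 12 genes was 972 to 996 FPKM in the CON libraries and 904 to 921 FPKM in the 4H libraries. Their part in the falls of Lbr and Lmnb2 was not tested. Of the transcripts of Pcna, 13.8% of 75-base stretches recur in other genes, and of Mcm7 9.49%. Exons of Mcm7 also overlap Cops6 (46.0 to 55.9 FPKM) and Ap4m1 (5.18 to 7.41 FPKM) on the other strand.

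**Figure D4:**
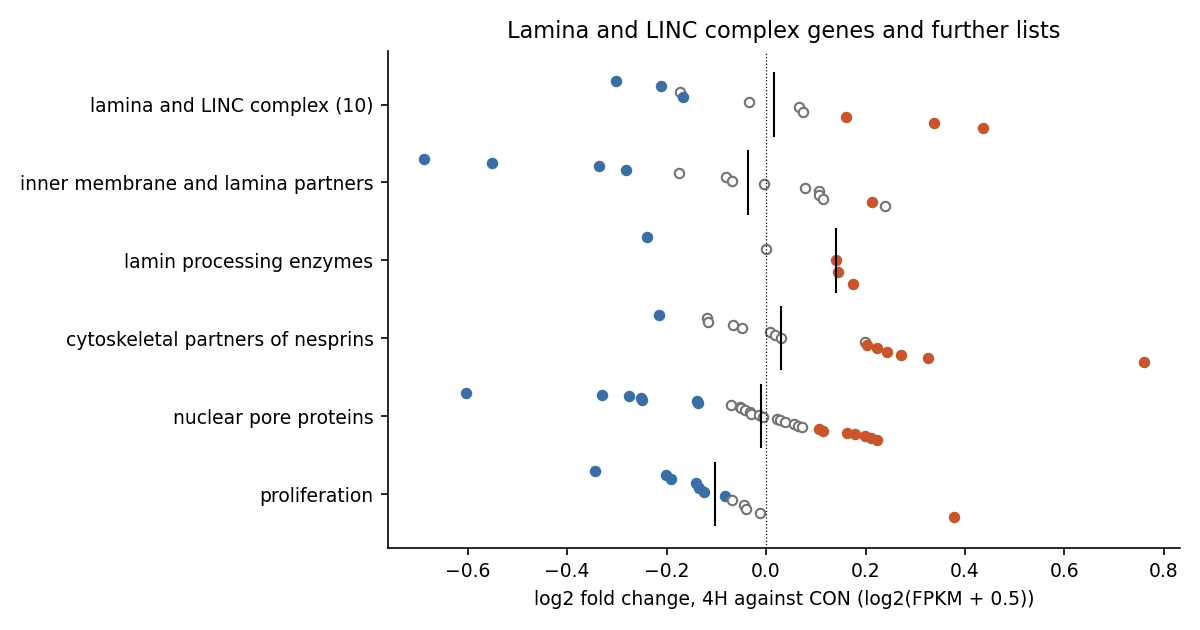
Log2 fold change in the 4H group against the CON group on the log2(FPKM + 0.5) scale (horizontal axis) of every tested gene in the lamina and LINC complex list and in 5 further lists, with one point per gene and a vertical bar at each list's median. Filled points passed an adjusted p of 0.05, orange for higher and blue for lower, and each list holds both.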

How the data were processed

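RNA-seq of C2C12 cells covered 3 CON and 3 4H libraries, grouped by the treatment labels. The authors deposited FPKM values per gene and library. Per the labels the build was mm10, while no aligner, counter or annotation is stated. Genes of a mean of at least 0.5 FPKM were tested with limma 3.58.1 in R 4.3.3 (eBayes with a trend, two-sided) on log2(FPKM + 0.5), over all 6 libraries with no block, with Benjamini-Hochberg adjustment over 11593 genes. No count model was used, because FPKM are not counts. Intervals are 95% intervals of limma. FPKM holds no depth, so the precision rests on the spread of 3 libraries. GENCODE M21 gave positions, overlaps and 75-base stretches. All columns of the table belonged to the 6 libraries, and no 2 were identical. The fit was tested on simulated data.

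The 10 genes and the lists were chosen with earlier results of these data known. Named in the text are the 10 genes and, in each list, genes past both thresholds and the 3 largest changes at an adjusted p of at most 0.05. Cell type markers of a mean of at least 0.5 FPKM could be given by value. Mki67, Nup58, Spag4, Sun3, Sun5 and Kash5 and the markers Pax7, Myog, Tnnt3, Tnni1, Syp, Mymx, Myh8, Actn2, Ptprc, Adgre1, Epcam and Rbfox3 fall outside this rule and were chosen after their values were seen. Overlapping genes were named for their position. Alternatives were pseudocounts of 0.1 and 1, no filter and a filter at 1 FPKM, TPM, median-of-ratios and quantile scaling, no trend, a replicate block, and each library left out. Plots used Python 3.11.15 and matplotlib 3.10.9.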

Additional observations from a re-analysis of the deposited data

How the results depend on the processing

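Under the 15 alternatives, the 6 genes that differed kept their direction and their side of an adjusted p of 0.05 in 89 of 90 values, and the 4 others never passed in 60. The exception was Lmnb2 without CON replicate 3, with a log2 fold change of -0.14 and an adjusted p of 0.0548. With a library left out, Lmnb2 ranged from -0.20 to -0.14, and the number of the 10 genes that passed from 5 to 6. Neither these 6 genes nor the 15 genes named from the lists because they passed changed direction. The cell type markers were not run under the alternatives. Values near 0 did change sign: Lmnb1 to 0.0025 with TPM and 0.0011 with quantile scaling, Spag4 to -0.11 with quantile scaling and -0.07 without 4H replicate 2, and the medians of the nuclear pore genes (0.02 with TPM, 0.0036 with quantile scaling, 0.02 without 4H replicate 3), of the inner membrane and lamina partners (3.4e-05 with TPM) and of all genes (0.03 with TPM, 0.02 with no filter). With libraries left out, the number of nuclear pore genes that passed ranged from 9 to 12 and that of proliferation genes from 5 to 7; the latter was 4 with TPM and 5 without a trend. In each case the cause was not tested.

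By the replicate numbers of the descriptions, same-numbered CON and 4H libraries did not deviate together (r from -0.126 to 0.025 across genes), and 0 of 3 CON libraries correlated best with their own number. This depends on the numbering: by the titles, CON replicate 3 shares its number with 4H3 (4H replicate 2), and that pair had r = 0.176, the highest of all pairs, while the other pair shared by title, number 1, had 0.025. The numbers were taken as names, and a block by title was not run. With the replicate block, 6 of the 10 genes passed, 3 higher and 3 lower, and 4964 of all genes passed instead of 5409. FPKM gives no depth, so small differences such as that of Lmnb1 are limited by the spread between libraries alone.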
